A study of Mus musculus with 2 samples.

Results

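ADAMTS enzymes are secreted metalloproteinases with thrombospondin motifs, and 10 of their genes were followed here through 1 comparison: Adamts1, Adamts2, Adamts3, Adamts4, Adamts5, Adamts8, Adamts9, Adamts12, Adamts15 and Adamts20. They were chosen with earlier results of these data known. The choice was by name, as every probe set whose gene symbol in the platform's annotation is exactly one of the 10. Of the 10 genes, 9 were named by at least 1 probe set, 17 probe sets in all among 34945 with a single gene symbol, and those probe sets stand for 9 of 18193 named genes. Adamts2 was named by none and was not analysed here. The study cultured superficial zone cells, the surface layer of articular cartilage that secretes lubricin, from the joints of ICR mice at postnatal day 4. One culture had no addition (control, n = 1) and the other had 10 μM retinoic acid (n = 1), the active form of vitamin A, for 24 h, both in serum-containing medium. RNA from each culture was read on 1 Affymetrix Mouse Genome 430 2.0 array, so there was no replicate, no p-value can be given, and a fold holds for this pair of arrays alone. Whether the cultures shared a cell preparation, and from how many animals, is not in the labels, and the cells were a primary culture that can hold other joint cells.

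The family divides by substrate. Adamts1, Adamts4, Adamts5, Adamts8, Adamts9, Adamts15 and Adamts20 encode proteases that cut the core proteins of aggrecan, versican and related proteoglycans, and the products of Adamts4 and Adamts5 are the classical aggrecanases of cartilage. Adamts2 and Adamts3 encode procollagen N-propeptidases, which trim the amino-terminal propeptide from fibrillar procollagens before fibril assembly. Adamts12 encodes an enzyme that cuts cartilage oligomeric matrix protein. All are made as proenzymes and are regulated after transcription by propeptide removal, inhibitors and uptake, none of which an RNA array measures. Retinoic acid has long been used to set off aggrecan loss in cartilage explants.

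The values are MAS5 signals, on a linear scale without physical units. Each array's median signal was used as a floor, 26.5 for control and 29.7 for retinoic acid, and a gene was counted as measured when its brightest probe set lay above the floor on at least 1 array. Where it was above the floor on both arrays the fold is the ratio of the signals. Where it was above on 1 array only, the fold is a bound against the other array's floor and is written "at least". The median spike-in ratio between the arrays was 1.05 (18 probe sets). Probe sets of the same gene scattered with an SD of 0.30 in log2 ratio over 4993 genes, a scatter that holds no variation between cultures. The retinoid-responsive gene Cyp26b1 was 115-fold higher, on the side the labels call for. Rarb, also retinoid-responsive, was at least 72.8-fold higher. It was above the floor on the retinoic acid array only and so could only come out higher. With the floor at the 70th percentile of signal both control readings lay under it. Cyp26b1 was then at least 38.1-fold and Rarb at least 15.9-fold higher.

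Proteoglycan-cleaving ADAMTS genes were higher with retinoic acid in every case that could be measured. The 1 measured procollagen peptidase gene and the 1 COMP-cleaving enzyme gene stayed within 2-fold, as did 89.1% of all measured genes. Of the 6 members above both floors, 4 were higher by 2-fold or more and 0 were lower by that much, where 6.03% and 4.03% of the 10722 genes above both floors were. At 4-fold or more, 2 of the 6 were higher, against 1.48% of those genes. Because the members were chosen with earlier results of these data known, these counts are a description and not a test. The median log2 ratio of the 6 was 1.28, or 2.42-fold, and that of all genes above both floors was 0.014. The remaining measured member, Adamts15, was above the floor on the retinoic acid array only and so could only come out higher; with it, 5 of 7 measured members were higher and 0 lower, where 6.54% and 4.34% of all 11884 measured genes were. The 5 were the measured proteoglycan-cleaving members. Adamts8 and Adamts20, the remaining members of that group, lay under both floors and have no fold. Read by probe set, 9 of the 17 were above both floors, and 7 of these were higher by 2-fold or more and 0 lower by as much, where 5.95% of all probe sets above both floors were that much higher and 3.56% that much lower. A further 3 probe sets were above the retinoic acid floor only and 5 were under both floors. Probe sets of a gene read the same RNA and are repeat readings, not replicates.

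**Figure D1:**
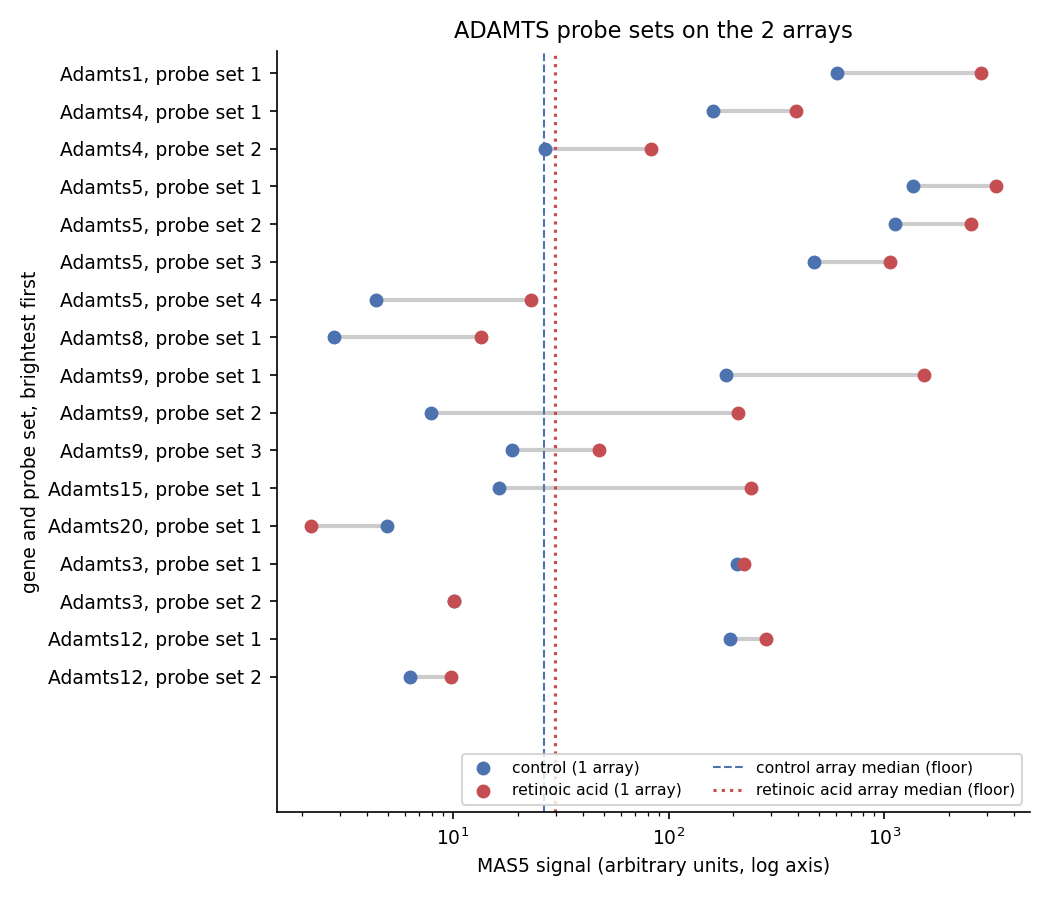
MAS5 signal (log axis) of the 17 ADAMTS probe sets on the control array (blue) and the retinoic acid array (red), numbered within each gene from the brightest. Dashed and dotted lines are the arrays' median signals, 26.5 and 29.7. In all 9 probe sets with both readings right of their lines the red point lies right of the blue one. In a further 3 only the red point lies right of its line, so it could only lie right of the blue one. The remaining 5 probe sets lie left of both lines.

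Adamts9, which encodes a protease that cuts versican and aggrecan, had a signal of 185 in the control culture and 1526 with retinoic acid in its brightest probe set. That is 8.23-fold higher, a log2 ratio of 3.04. Only 32 of the 10722 genes above the floor on both arrays (0.298%) had a higher ratio. Its other probe sets were above the floor on the retinoic acid array only and so could only come out higher. The second gave 7.89 and 210, at least 7.94-fold, and the third 18.8 and 47.8, at least 1.80-fold. In both of these the control signal was under the floor, so only the brightest probe set measures a direction and a size.

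Adamts15, a further versican- and aggrecan-cleaving enzyme gene with a single probe set, gave 16.3 in control and 242 with retinoic acid. It was at least 9.11-fold higher. The control reading lay under the floor, so this bound rests on where the floor is put. With the floor at the 70th percentile of signal the bound was 1.99-fold, just short of the 2-fold line, and 4 members were then counted as higher.

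Adamts1, whose product cuts versican and aggrecan and is required for normal ovulation, gave 606 in control and 2818 with retinoic acid. It was 4.65-fold higher, a log2 ratio of 2.22, and 1.04% of genes above both floors had a higher ratio. It has 1 probe set, so no second reading of the transcript was at hand.

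Adamts5 encodes the aggrecanase whose loss protects mice from cartilage aggrecan breakdown in joint disease models. Its brightest probe set gave 1353 in control and 3278 with retinoic acid, 2.42-fold higher. The next gave 1118 and 2518, 2.25-fold, and the third 470 and 1065, 2.26-fold. These 3 readings span 0.11 on the log2 scale, closer than the 0.30 seen between probe sets of a gene in general. The fourth probe set lay under the floor on both arrays, at 4.42 and 23.2. Among genes with a control signal of 500 to 2000, the range that holds Adamts5 and Adamts1, 3.21% were at least 2-fold higher.

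Adamts4, the other classical aggrecanase gene, gave 160 in control and 389 with retinoic acid, also 2.42-fold higher. Its dimmer probe set gave 26.7 and 82.8, 3.10-fold, from a control reading barely above the floor. The log2 ratios of Adamts4 and Adamts5, both 1.28, differ by far less than the scatter between probe sets, whereas the log2 ratio of Adamts1 is higher than both by more than that scatter. In order of ratio, the genes above both floors ran Adamts9, Adamts1, Adamts4 and Adamts5, and Adamts15, known only as a bound, cannot be placed against Adamts9. Of genes with a control signal from 100 to 300, where Adamts4 and Adamts9 lie, 5.63% were at least 2-fold higher. Adamts3 and Adamts12, with control signals of 208 and 193, lie in the same range and were within 2-fold.

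Adamts8, an enzyme gene with antiangiogenic thrombospondin repeats, read 2.82 in control and 13.5 with retinoic acid. Adamts20, the versican-cleaving enzyme gene mutated in belted mice, read 4.93 and 2.20. All 4 readings lie under the floors, where MAS5 signals carry little information, and no direction is given for either gene. The single probe set of each gene cannot separate a silent gene from a probe set that reads its transcript poorly.

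The procollagen side was read through Adamts3, whose product trims procollagen and activates the lymphatic growth factor VEGF-C. It gave 208 in control and 223 with retinoic acid, a ratio of 1.07. This difference, 0.10 on the log2 scale, is smaller than the scatter between probe sets. Its dimmer probe set was under the floor on both arrays, at 10.1 each. Adamts12 gave 193 and 283, a ratio of 1.46, and 14.8% of genes above both floors had a higher one. Its second probe set read 6.32 and 9.81, under both floors. Between Adamts12 and the next member up, Adamts5, no member had a ratio from 1.46 to 2.42, so the 2-fold line falls in a gap of the family.

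**Figure D2:**
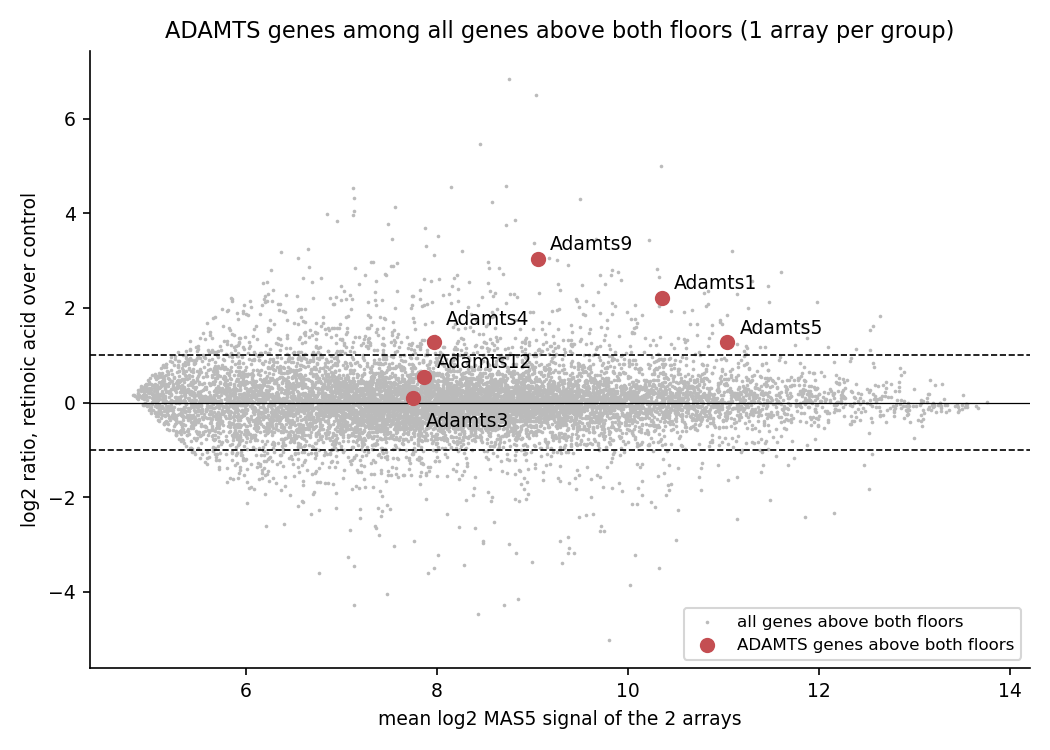
Log2 ratio of retinoic acid over control against the mean log2 MAS5 signal for the 10722 genes above the floor on both arrays (grey, 1 array per group), with the 6 ADAMTS genes among them in red and dashed lines at 2-fold. Adamts9, Adamts1, Adamts4 and Adamts5 lie above the upper line, and Adamts12 and Adamts3 lie between the lines.

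Promoter sequence was set out for members on either side of that gap, to show what lies next to the transcript start of a gene that was higher and of one within 2-fold. RefSeq promoter windows (GRCm38.p6) matched 6 of the 10 members. The windows below are the 250 bases before the start, 5′ to 3′ on the gene's strand, for Adamts1 (chr16:85803114-85803363, minus strand) and Adamts9 (chr6:92943535-92943784, minus strand), then for Adamts3 (chr5:89883335-89883584, minus strand) and Adamts12 (chr15:11064523-11064772, plus strand). Capitals mark every match, on either strand, to 5 motifs: the retinoic acid receptor half-site AGGTCA, its variant AGTTCA, the AP-1 site TGACTCA, the TATA box TATAAA and the GC box GGGCGG.
Adamts1: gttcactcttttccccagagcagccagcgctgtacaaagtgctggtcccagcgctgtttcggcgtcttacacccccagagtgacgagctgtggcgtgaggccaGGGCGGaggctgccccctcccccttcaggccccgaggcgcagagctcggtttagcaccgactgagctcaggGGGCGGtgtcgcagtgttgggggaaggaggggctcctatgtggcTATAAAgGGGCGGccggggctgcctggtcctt
Adamts9: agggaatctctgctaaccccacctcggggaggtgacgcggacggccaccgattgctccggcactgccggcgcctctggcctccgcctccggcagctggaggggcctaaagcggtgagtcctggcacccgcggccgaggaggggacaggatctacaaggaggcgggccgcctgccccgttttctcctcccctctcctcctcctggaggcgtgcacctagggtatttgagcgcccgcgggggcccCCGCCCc
Adamts3: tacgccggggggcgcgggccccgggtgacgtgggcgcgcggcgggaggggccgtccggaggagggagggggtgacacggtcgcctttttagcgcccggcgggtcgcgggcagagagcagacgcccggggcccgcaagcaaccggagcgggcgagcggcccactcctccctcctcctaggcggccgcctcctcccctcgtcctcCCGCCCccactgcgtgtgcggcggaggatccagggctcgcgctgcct
Adamts12: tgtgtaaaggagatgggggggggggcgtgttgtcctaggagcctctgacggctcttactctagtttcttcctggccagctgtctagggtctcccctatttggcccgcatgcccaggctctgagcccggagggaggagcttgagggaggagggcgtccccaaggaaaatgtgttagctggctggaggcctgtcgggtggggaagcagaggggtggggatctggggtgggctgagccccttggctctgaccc
The Adamts1 window held a TATA box whose first base lies 32 bases before the start, and 3 GC boxes, at 147, 76 and 25 bases. TATAAA is present in 12.4% and GGGCGG in 32.7% of all 32851 windows of this length, with no overlap between motif matches in these 4 windows. The Adamts9 window held 1 GC box, on the opposite strand, and so did the Adamts3 window, while Adamts12 had no match to any of the 5. Neither half-site nor the AP-1 site was found in any of the 4, motifs that 14.0% (AGGTCA), 11.8% (AGTTCA) and 4.46% (TGACTCA) of all windows hold. These are matches of letters in a short window and say nothing of more distant sequence. By composition the windows were GC-rich, with 65.6% G or C for Adamts1, 71.2% for Adamts9, 78.0% for Adamts3 and 63.2% for Adamts12, against a median of 52.4% over all windows.

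Of 9 further ADAMTS family genes 6 were on the array and 4 were measured, with 0 past 2-fold in either direction. Of all measured genes 6.54% were that much higher and 4.34% that much lower, so 89.1% were within 2-fold. Adamts6 read 39.5 and 39.2, and Adamts10, linked to fibrillin microfibrils, read 119 and 113. Adamts16 read 67.0 and 39.1, a ratio 1.71-fold lower, and Adamts7, the relative of Adamts12 that also cuts COMP, was above the floor with retinoic acid only (8.71 and 36.7, at least 1.38-fold). The Adamts7 bound rests on the floor: it was 3.73-fold with the floor at the 30th percentile, and 1 of the family genes was then past 2-fold. Adamts18 and Adamts19 lay under both floors.

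ADAMTS-like proteins share the ancillary domains but lack the protease, and they went both ways. Of 7 genes 6 were measured, 2 higher and 2 lower by 2-fold or more, against 6.54% and 4.34% of all measured genes. The same shares stand beside the counts of the lists that follow. Adamtsl1 gave 32.7 in control and 467 with retinoic acid, 14.3-fold higher. Its other probe sets were above the floor with retinoic acid only, so they could only come out higher (at least 4.63-fold and at least 4.57-fold). Thsd4, which encodes a fibrillin-binding member, was at least 4.06-fold higher (24.0 and 108). It was above the floor with retinoic acid only and so could only come out higher. Adamtsl3 was 3.69-fold lower (711 and 193) and Adamtsl4, another microfibril-associated member, 2.36-fold lower (398 and 169). Adamtsl5 read 78.2 and 47.3 (1.65-fold lower), and Adamtsl2 was above the floor in control only (34.0 and 17.7). Their median log2 ratio was −0.46. With the floor at the 70th percentile only 1 was higher by 2-fold or more, since Thsd4 was then not measured. With unique-type probe sets only, 1 was lower, since Adamtsl4 has no such probe set.

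Among the substrates, aggrecan stood apart from the others. Acan read 5066 in control and 157 with retinoic acid, 32.3-fold lower. Vcan, which encodes versican and is a substrate of the same enzymes, read 1850 and 1427, 1.30-fold lower, with its other probe sets above the floors 1.12-fold to 1.40-fold lower. Comp read 9775 and 7688, 1.27-fold lower. Of the 5 genes 4 were measured, with 1 at least 2-fold lower and 0 higher. Procollagen genes were all within 2-fold: Col1a1 was 1.21-fold lower, Col2a1 1.29-fold lower and Col3a1 1.06-fold lower, while the probe sets of Col1a2 disagreed in sign.

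Procollagen is also trimmed at its carboxyl end, by Bmp1 and the tolloid-like proteases. There, 4 of 7 genes were measured, 1 higher and 1 lower by 2-fold or more. Tll1, a tolloid-like protease gene, gave 56.7 and 266, 4.68-fold higher. Pcolce2, which encodes an enhancer of those proteases, gave 1833 and 94.4, 19.4-fold lower. Its relative Pcolce read 9875 and 10374, a ratio of 1.05, and Bmp1 read 202 and 257, a ratio of 1.27.

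Of 8 genes for inhibitors and clearance of ADAMTS enzymes, 6 were measured, 1 higher and 1 lower by 2-fold or more. Timp3 encodes the matrix-bound TIMP that inhibits aggrecanases. Its brightest probe set read 8915 in control and 3580 with retinoic acid, 2.49-fold lower, and the other three probe sets were 2.49-fold to 4.10-fold lower. Timp1 (1.25-fold lower), Timp2 (ratio 1.06) and Reck (ratio 1.15) stayed within 2-fold. Lrp1, which encodes the receptor that takes up ADAMTS4, ADAMTS5 and TIMP3 from the matrix, read 1688 and 3433, 2.03-fold higher, and 2.82-fold in a dimmer probe set; the first value was 1.89-fold after quantile normalization and 1.95-fold after loess, leaving 0 of the list higher by 2-fold or more.

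Genes for propeptide convertases, which remove the propeptide of ADAMTS proenzymes, had 0 of 4 past 2-fold, with Furin at 384 and 392 (ratio 1.02) and Pcsk5 1.63-fold lower. Among binding partners, 2 of 4 were at least 2-fold higher and 0 lower, but 0 of 4 were higher by that much with the median over probe sets and 1 of 4 with unique-type probe sets only. Fbln1, whose product fibulin-1 binds ADAMTS1, was 2.51-fold higher (417 and 1047), with a second probe set at 1.55-fold. Sdc1 was 2.56-fold higher (455 and 1164) with dimmer probe sets from 1.66-fold to 1.97-fold, and Sdc4, the syndecan tied to ADAMTS5 in cartilage, read 1779 and 1896, a ratio of 1.07. Cytokines that induce aggrecanases were read with their receptors, 7 of 11 measured, 0 higher and 1 lower by 2-fold or more. Il1a, Tnf, Il6 and Osm lay under both floors, Il1b was barely above the floor with retinoic acid (18.1 and 30.2), and the receptor gene Il1r1 was 4.00-fold lower (761 and 190).

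**Figure D3:**
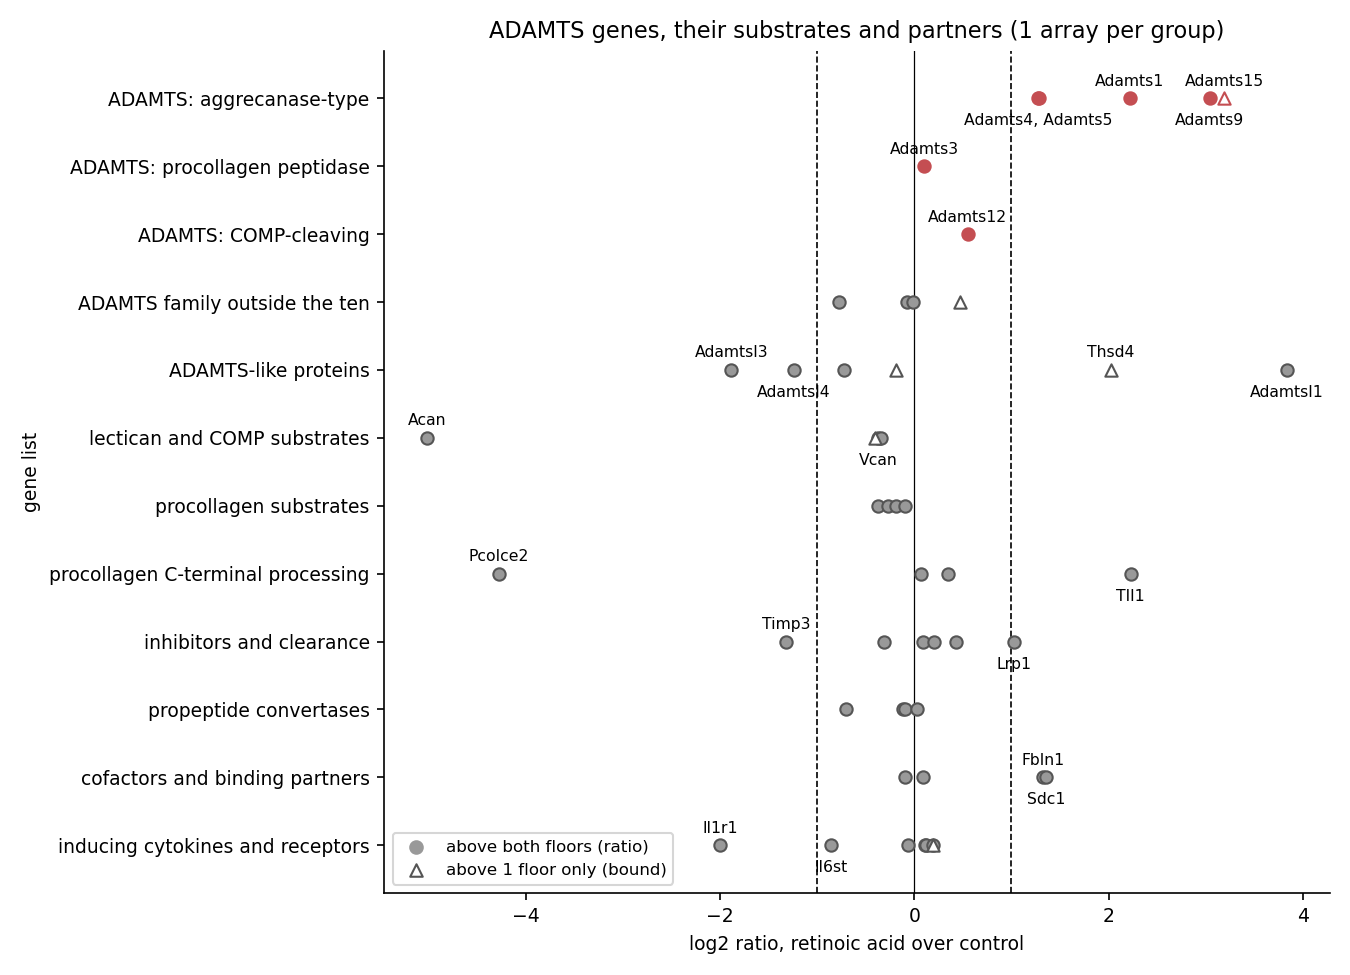
Log2 ratio of retinoic acid over control for each measured ADAMTS gene (red, by role) and for the genes of their family, substrates and partners (grey), 1 array per group. Circles are ratios of genes above both floors, open triangles are bounds of genes above 1 floor only, and dashed lines mark 2-fold; the proteoglycan-cleaving members lie right of the upper line, and Acan (−5.01) and Pcolce2 (−4.28) lie farthest left.

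Markers of the labelled cell type and of other joint cells were read beside these values. Of 9 superficial chondrocyte markers 8 were measured, Prg4 (1920 and 1148) and Col2a1 among them, with Clu higher by 2-fold or more and 3 (Acan, Sox9 and Hapln1) lower. Macrophage markers were measured in 5 of 8, with 0 past 2-fold, a summed signal of 526 in control and 620 with retinoic acid, and Ptprc, Itgam and Aif1 under both floors. Of 7 endothelial markers 1 was measured (summed signal 78.0 and 92.3), and the 2 erythroid markers on the array were under both floors. Smooth muscle and pericyte markers summed to 4444 and 7085, with 5 of 6 measured, Rgs5 (2.93-fold) and Mylk (2.75-fold) higher and Myh11 under both floors. Acta2 (3165 and 4340, a ratio of 1.37) made up most of both sums. Tagln was 1.99-fold higher, and Cnn1 went the other way (116 and 70.5, 1.65-fold lower). Osteoclast markers summed to 918 and 1455, with 2 of 5 measured and Acp5 6.45-fold higher while Calcr, Ocstamp and Dcstamp were under both floors. Osteoblast markers summed to 352 and 232, with 4 of 6 on the array and all 4 measured. Sp7 (3.01-fold) and Alpl (2.05-fold) were lower, while Ibsp read 71.3 and 81.0. Dmp1 (15.9 and 40.9) was above the floor with retinoic acid only and so could only come out higher. Tendon and ligament markers summed to 2187 and 1563, with 5 of 5 measured. Kera was at least 2.21-fold lower, Thbs4 1.85-fold lower and Tnmd 1.21-fold lower. Mkx was 1.90-fold higher, and the probe sets of Scx disagreed in sign. Skeletal muscle markers summed to 461 and 450, with 5 of 6 measured and Myod1 under both floors. Des was 2.27-fold lower, Ckm 1.49-fold lower and Myh3 1.04-fold lower, while Acta1 was 1.29-fold and Myog 1.31-fold higher. Of 4 adipocyte markers 2 were on the array, and Fabp4 was 11.0-fold higher with Adipoq under both floors. The part of other cells in the ADAMTS values was not tested, and in these bulk cultures fewer cells of a type and less RNA per cell cannot be told apart.

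**Figure D4:**
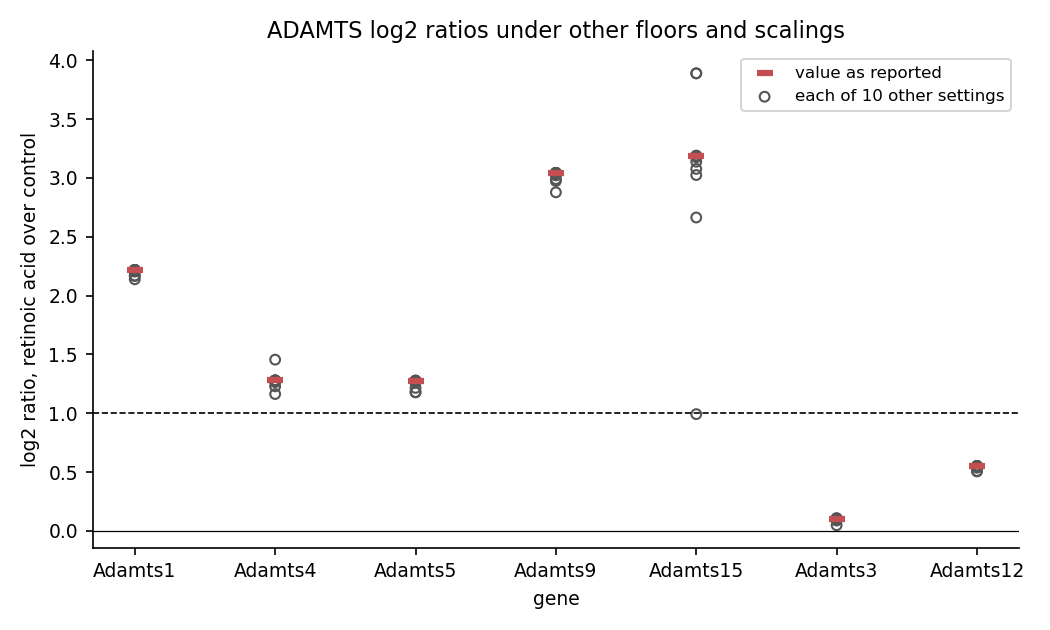
Log2 ratio of retinoic acid over control for the 7 measured ADAMTS genes as reported (red bars) and under each of 10 other floors, scalings and probe set choices (open circles), with a dashed line at 2-fold. Adamts15 spreads from 0.99 to 3.89, and the other 6 genes keep their side of the line.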

How the data were processed

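The 2 cultures, 1 array each, were grouped by the treatment in the labels. Total RNA (100 ng) was labelled with biotin and hybridised to the array, per the labels' protocols. The authors deposited 1 linear intensity per probe set, made with MAS5 per the submitters' processing notes; the version and the scaling target of MAS5 and its detection flags were not found in the labels or the file. They were used as they stand. Probe sets were named from the platform's annotation: 34945 had 1 symbol, 932 several and 9160 none, and 64 were controls. Each gene took the values of its brightest probe set (mean log2 over the arrays). Floors, bounds and the 2-fold and 4-fold lines are as described with the results; no significance test was possible with 1 array a group, and the number of arrays limits the precision. The members and the gene lists were chosen with earlier results of these data known. All member probe sets are named; list genes above a floor could be named, those past 2-fold first, and some of them are given only in their list's counts. The code was tested on simulated data. Promoter windows came from RefSeq (GRCm38.p6). The 10 alternatives were floors at the 30th and 70th percentile, a common floor, no floor, an offset, median centring, quantile normalization, loess (span 0.3), the median over probe sets and unique-type probe sets. Software was pandas 2.3.3 and numpy 2.4.6 in Python 3.11.15, with loess from statsmodels 0.14.6.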

Additional observations from a re-analysis of the deposited data

How the results depend on the processing

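Over the 10 alternatives, Adamts1 (log2 ratio 2.14 to 2.22), Adamts4 (1.16 to 1.46), Adamts5 (1.18 to 1.28) and Adamts9 (2.88 to 3.04) remained at least 2-fold higher, and Adamts3 (0.048 to 0.11) and Adamts12 (0.51 to 0.55) remained within 2-fold. Adamts15 ran from 0.99 with the floor at the 70th percentile to 3.89 with the floor at the 30th percentile or with no floor, since its control signal is below the median. With no floor 9 members have a value in place of 7: Adamts8 enters with signals of 2.82 and 13.5 and Adamts20 with 4.93 and 2.20, so that 6 were higher by 2-fold or more in place of 5, and 1 lower in place of 0. Without a floor 11.7% of all genes were higher by 2-fold or more and 11.6% lower, against 6.54% and 4.34%. For the genes in the lists, 452 values were computed under the alternatives, with the retinoid-responsive genes included and genes listed only as cell type markers left out. Of these, 422 moved by no more than the scatter between probe sets (0.30 on the log2 scale), 30 moved by more and 0 changed direction past 2-fold. A gene not measured under an alternative has no value there and is left out of this count, as Thsd4 is with the floor at the 70th percentile. With the floor at the 70th percentile the control signals of Adamtsl1 and Tll1 lay under it. Their log2 ratios were then bounds, at least 1.94 and at least 1.13, in place of ratios of 3.83 and 2.23. With the median over probe sets Adamtsl1 had 2.21, itself a bound, Fbln1 0.98 and Sdc1 0.96. Low signal over background limits Adamts8, Adamts20 and the control reading of Adamts15. No paired analysis was possible because each group has 1 array.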

Other observations

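The positions of the genes add a description that the comparison above does not use; it was chosen after the members' values were seen. In RefSeq's gene order for GRCm38.p6, Adamts1 and Adamts5 are neighbours, as are Adamts15 and Adamts8. Both genes of the first pair were at least 2-fold higher (4.65-fold and 2.42-fold). In the second pair Adamts15 was at least 9.11-fold higher and Adamts8 was under both floors. The gene on the far side of Adamts1, Cyyr1, read 27.0 in control and 124 with retinoic acid, 4.58-fold higher from a control signal barely above the floor of 26.5, whereas N6amt1 on the far side of Adamts5 read 227 and 201. Of 16 protein-coding neighbours of the 10 members that are not members themselves, 13 were measured, Cyyr1 alone was at least 2-fold higher and 0 were at least 2-fold lower, against 6.54% and 4.34% of all measured genes. Adamts9 and Adamts20 each lie beside a gene of the planar polarity family, Prickle2 (198 and 357, 1.80-fold higher) and Prickle1 (277 and 191, 1.45-fold lower).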
